A study of Arabidopsis thaliana with 24 samples.

Results

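The comparison described here set the hyl1 mutant against the Col0 wild type in the root line whose tagged ribosomes were expressed from the SCR promoter, which is used to mark the endodermis. It was chosen by column name, as both hyl1 and both Col0 libraries of that line, 4 of the 24 libraries in the series. All 23219 of the 33602 listed genes that passed a filter on low counts were tested. The hyl1 plants were Columbia-0 with the hyl1 mutation and a pSCR::HF:RPL18 transgene, and the Col0 plants were Columbia-0 with a transgene of the same name. The labels do not name the hyl1 allele or say how many transgenic lines stood behind each genotype. Roots came from vertical plates in long days at 22 °C, 6 days after transfer to light, and about 20 plates went into each sample. HF-RPL18 is a ribosomal protein L18 with a FLAG tag, so an anti-FLAG resin recovered ribosomes with their bound RNA from the cells in which the promoter was active. The values therefore describe ribosome-associated RNA, and in such pull-downs fewer cells of a type and less RNA per cell cannot be told apart.

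HYL1 binds double-stranded RNA and helps the nuclease DCL1 cut microRNAs accurately from their hairpin precursors. Plant microRNAs pair almost completely with their target mRNAs, which are then cleaved or held back from translation, so targets are commonly more abundant in mutants that make fewer microRNAs. The endodermis is the innermost cortical layer of the root, sealed by the Casparian strip and later by suberin. It is also where the SHR and SCR transcription factors switch on the genes of miR165 and miR166, whose products move into the stele and restrict class III HD-ZIP mRNAs.

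Several of the targets that changed in this line belong to microRNA families whose sequences are shown here with the seed, bases 2 to 8 from the 5′ end, in capitals. The 6 mature sequences are those of the RefSeq annotation of TAIR10.1, and they were chosen because their targets rose in hyl1.
miR159a: uUUGGAUUgaagggagcucua
miR319a: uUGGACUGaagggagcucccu
miR395a: cUGAAGUGuuugggggaacuc
miR169a-5p: cAGCCAAGgaugacuugccga
miR824-5p: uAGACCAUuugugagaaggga
miR166a-3p: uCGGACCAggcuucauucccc
No 2 of these sequences had the same seed, although miR159a and miR319a are related elsewhere in the molecule.

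The best-paired 21-base window of the spliced target transcripts follows, 5′ to 3′, with the bases that face the seed in capitals. Each window was found by pairing the microRNA with every position of the transcript, counting a G:U pair as less costly than a mismatch.
MYB33 with miR159a: uggagcucccuucAUUCCAAu
MYB65 with miR159a: uggagcucccuucAUUCCAAu
TCP4 with miR319a: gagggguccccuuCAGUCCAg
SULTR2;1 with miR395a: aaguucucccaaaCACUUCAa
APS4 with miR395a: gaguuccuccaaaCACUUCAu
NF-YA2 with miR169a-5p: caggcaaaucaucUUUGGCUc
NF-YA3 with miR169a-5p: aggggaagucaucCUUGGCUa
NF-YA8 with miR169a-5p: aagggaagucaucCUUGGCUg
AGL16 with miR824-5p: ucucuucucacaaAUGGUCUa
PHB with miR166a-3p: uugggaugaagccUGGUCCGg
ATHB-15 with miR166a-3p: cuggaaugaagccUGGUCCGg
MYB33 and MYB65 shared the same 21 bases. The windows of MYB33, MYB65, TCP4, SULTR2;1, APS4, PHB and ATHB-15 lay in coding sequence, and those of NF-YA2, NF-YA3, NF-YA8 and AGL16 in the 3′ UTR. The AGL16 window had 0 mismatches and 1 G:U pair, while that of NF-YA3 had 4 mismatches and 0 G:U pairs. Such a match describes the letters and is not a measured cleavage site.

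The 4 libraries held 5738367 and 5961033 counts in hyl1 and 6625137 and 7027091 counts in Col0. The marker genes went with the label, since the summed level of 17 Casparian strip and 23 suberin genes was 3051 to 10527 normalised CPM in these libraries, against 459 to 2384 CPM in the 20 others. The SCR transcript itself was at 33.6 to 101 CPM, against 4.81 to 31.8 CPM there. CPM here are read counts scaled by edgeR's TMM factors to a common library size. Markers of other layers were also counted, so the pull-downs were enriched for the endodermis and not confined to it.

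Col0 replicate 2 stood apart from the other SCR libraries. The endodermis sum was 10527 and 9354 CPM in hyl1, against 10256 CPM in Col0 replicate 1 and 3051 CPM in Col0 replicate 2. The 9 cortex markers, most of them genes of triterpene synthesis, summed to 453 and 403 CPM in hyl1 and to 290 and 1393 CPM in Col0. The 10 root cap markers summed to 126 and 150.1 CPM in hyl1 and to 57.6 and 307 CPM in Col0. Col0 replicate 2 was thus lowest in endodermis markers and highest in cortex and root cap markers. The defining cortex marker CO2 was at or near 0 in all 4 libraries, with 1.22 and 1.44 CPM in hyl1 and 0.888 and 0 CPM in Col0. Log2 CPM of the 2 libraries correlated at 0.972 in hyl1 and at 0.930 in Col0 across genes, which are not independent replicates. Results that rest on this library are given with and without it, and its part in the other differences was not tested.

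**Figure D1:**
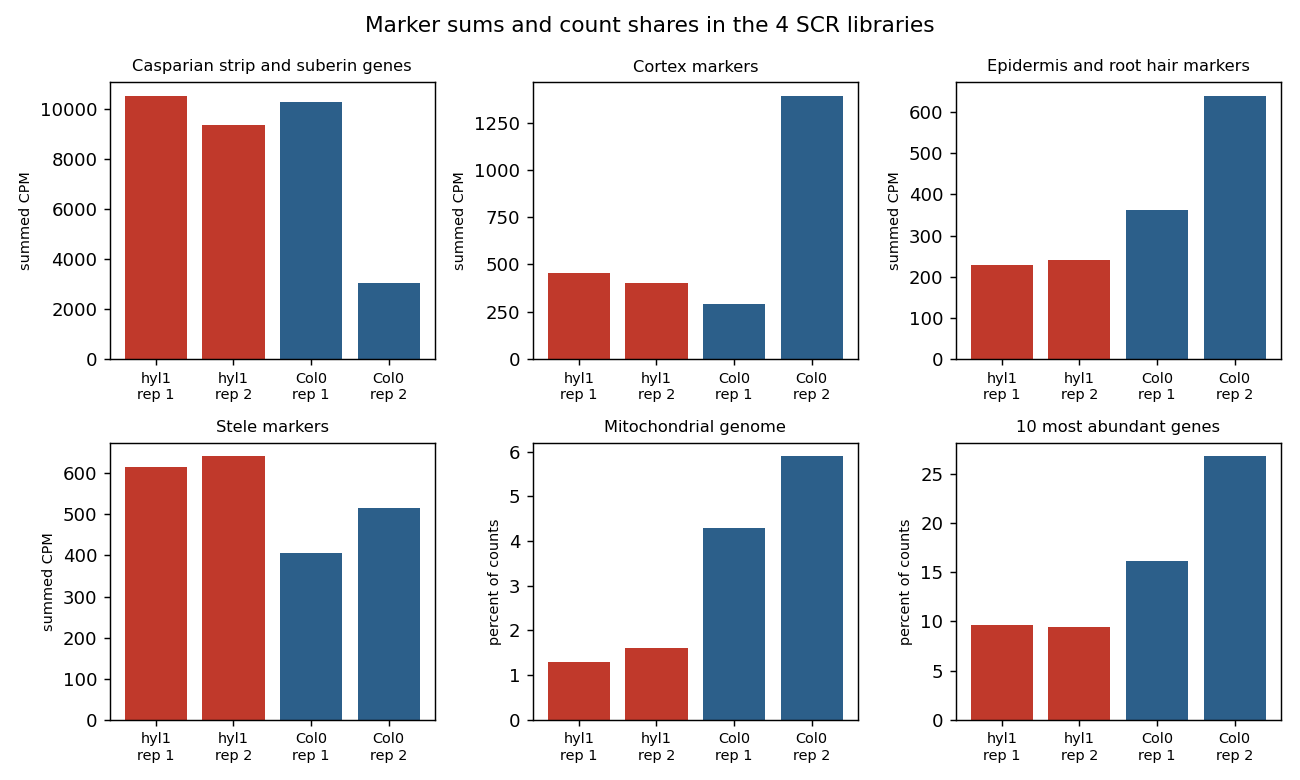
Bars give the summed CPM of marker lists (endodermis, cortex, epidermis, stele) and the percent of all counts in mitochondrial genes and in the 10 most abundant genes, for hyl1 replicates 1 and 2 and Col0 replicates 1 and 2 of the SCR line. The Col0 replicate 2 bar is low for Casparian strip and suberin genes, at 3051 CPM, and is the highest bar for cortex markers and for the 10 most abundant genes, at 26.8%.

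HYL1 (AT1G09700) was counted at 1.37 and 1.88 CPM in the hyl1 libraries and at 11.8 and 6.81 CPM in the Col0 libraries. Both hyl1 values were below both Col0 values. The log2 fold change of −2.51 (SE 0.87) did not pass the test (adjusted p = 0.23). Among the fits checked for this gene, it passed only where the spread came from 16 libraries that leave out the SHR and WER lines (adjusted p = 0.0182). RPL18 (AT3G05590), whose protein was tagged and whose reads can include the transgene, had 4768 and 5572 CPM in hyl1 and 2661 and 1394 CPM in Col0. Its groups did not overlap, and its log2 fold change was 1.35 (SE 0.41, adjusted p = 0.142), or 0.96 without Col0 replicate 2. RPL18 was called by DESeq2 (adjusted p = 0.0239) and by edgeR with the spread of the 16 libraries (adjusted p = 0.0444). The SCR gene had 101 and 90.9 CPM in hyl1 and 82.8 and 33.6 CPM in Col0 (log2 fold change 0.72, SE 0.36, adjusted p = 0.559). Without Col0 replicate 2 that value was 0.22.

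Of the 23219 genes, 123 (0.53%) were called higher in hyl1 and 317 (1.37%) were called lower, at an adjusted p under 0.05 with edgeR's quasi-likelihood test. The rises were led by genes that were almost silent in Col0, by microRNA targets and by genes of aliphatic glucosinolate synthesis. The falls were mostly transcripts of the plastid and mitochondrial genomes and of a mitochondrial-like block on chromosome 2, beside root hair genes. Over all tested genes the median fold change was −0.01 on the log2 scale. The libraries of a called gene never overlapped between the genotypes, which was also so for 21.9% of all tested genes with hyl1 higher and for 22.1% with hyl1 lower. Leaving out Col0 replicate 2 gave 94 higher (0.379%) and 91 lower calls (0.367%), of which 60 and 82 were among the calls with all libraries. The 440 calls in all (1.89%) became 983 without Col0 replicate 1, 135 without hyl1 replicate 1 and 149 without hyl1 replicate 2. Of the calls, 46 of 123 higher and 64 of 317 lower genes were called with each of the 4 libraries left out in turn. Nearly all of those lower genes, and none of those higher genes, were organelle or AT2G07 genes. With the spread taken from 16 libraries 1.81% of genes were called higher and 3.49% lower, and DESeq2 called 1.01% higher and 2.35% lower. Without the WER libraries 381 genes were called higher and 736 lower, among them all of the 123 and 317. With organelle, AT2G07 and the 10 most abundant genes taken out 168 genes were called, and a fit of the 4 SCR libraries alone called 1 gene, AT1G52820, and so 0 microRNA targets and 0 glucosinolate genes.

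Among the 126 listed microRNA targets, 112 were tested, 12 rose and 0 fell in hyl1, where 0.53% of all genes were called higher. Their median log2 fold change was 0.47, and 80 of the 112 were above 0, beside 11509 of the 23219 tested genes. An unadjusted p under 0.05 was found for 41 members, beside 2247 of the 23219 genes. DESeq2 called 18 members higher and 2 lower, beside 1.01% and 2.35% of all genes. Between 7 and 15 members rose with 1 library left out, and with Col0 replicate 2 left out 8 rose and the median was 0.44. With the spread of 16 libraries 24 rose. The 12 called genes were in the miR159, miR319, miR395, miR169, miR824, miR165 and miR166, and miR447 families.

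MYB33 (AT5G06100) and MYB65 (AT3G11440) encode GAMYB-like transcription factors and are the classical targets of miR159. MYB33 had 51.7 and 51.4 CPM in hyl1 and 5.77 and 5.26 CPM in Col0. MYB65 had 38.3 and 37.8 CPM in hyl1 and 5.33 and 2.78 CPM in Col0. Both genes were high in both hyl1 libraries, far above either Col0 library. They rose by 3.22 on the log2 scale each, with SE 0.28 and adjusted p = 1.54e-05 for MYB33, and SE 0.45 and adjusted p = 0.000434 for MYB65.

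The related miR319 acts on TCP genes, transcription factors known for limiting cell division in leaves. TCP4 (AT3G15030) had 28.5 and 29.0 CPM in hyl1 and 4.29 and 5.88 CPM in Col0. The hyl1 libraries lay well above the Col0 libraries, with a log2 fold change of 2.50 (SE 0.41, adjusted p = 0.00181). TCP3 (AT1G53230), another target of this family and named after its values were seen, had 11.7 and 13.4 CPM in hyl1 and 1.63 and 3.71 CPM in Col0. Its change of 2.23 (SE 0.58) missed the threshold (adjusted p = 0.0588). Of the 5 tested miR319 targets, 1 was called.

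miR395 regulates the uptake and first activation of sulfate. SULTR2;1 (AT5G10180), a low-affinity sulfate transporter, had 46.0 and 62.5 CPM in hyl1 and 3.70 and 5.26 CPM in Col0. It was the most changed target, at 3.6 (SE 0.36, adjusted p = 7.18e-05), and the groups did not overlap. APS4 (AT5G43780), an ATP sulfurylase, had 410.3 and 414 CPM in hyl1 and 261 and 93.0 CPM in Col0. Its groups did not overlap either, but the Col0 libraries differed much from each other. The log2 fold change was 1.22 (SE 0.31, adjusted p = 0.0474), and it fell to 0.67 (adjusted p = 0.354) without Col0 replicate 2. All 4 tested miR395 targets were above 0, with a median of 1.0.

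miR169 targets the NF-YA subunits, the part of nuclear factor Y that recognises CCAAT boxes. NF-YA2 (AT3G05690) had 57.6 and 61.8 CPM in hyl1 and 10.4 and 16.4 CPM in Col0. NF-YA3 (AT1G72830) had 50.1 and 64.1 CPM in hyl1 and 16.3 and 9.74 CPM in Col0. NF-YA8 (AT1G17590) had 23.2 and 31.3 CPM in hyl1 and 5.63 and 5.88 CPM in Col0. For each of these genes the lower hyl1 library was above the higher Col0 library. They rose by 2.16 (SE 0.45, adjusted p = 0.0119), 2.13 (SE 0.32, adjusted p = 0.000921) and 2.24 (SE 0.39, adjusted p = 0.00285), in the order NF-YA2, NF-YA3 and NF-YA8. All 7 tested members of the family were above 0, with a median of 1.36.

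The class III HD-ZIP transcription factors PHB and ATHB-15 pattern the vascular cylinder and are held in check by miR165 and miR166. PHB (AT2G34710) had 52.3 and 63.6 CPM in hyl1 and 18.9 and 19.6 CPM in Col0. ATHB-15 (AT1G52150) had 70.7 and 82.0 CPM in hyl1 and 26.1 and 34.3 CPM in Col0. Neither gene's groups overlapped. PHB rose by 1.59 (SE 0.26, adjusted p = 0.0018) and ATHB-15 by 1.34 (SE 0.25, adjusted p = 0.00523). All 5 tested class III HD-ZIP genes were above 0, with a median of 0.89.

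AGL16 (AT3G57230), a MADS-box gene targeted by miR824 and known from stomatal development, had 120.4 and 107 CPM in hyl1 and 38.9 and 23.2 CPM in Col0. It rose by 1.87 (SE 0.28, adjusted p = 0.000721), with both hyl1 libraries above both Col0 libraries. The miR447 target 2PGK (AT5G60760) had 26.5 and 22.9 CPM in hyl1 and 10.2 and 7.58 CPM in Col0. It rose by 1.47 (SE 0.34, adjusted p = 0.0291), with separate groups. MYB33, MYB65, TCP4, SULTR2;1, NF-YA3, AGL16 and PHB were called with any 1 of the 4 libraries left out. The call of ATHB-15 was lost without hyl1 replicate 2 (adjusted p = 0.102), and that of NF-YA8 without Col0 replicate 2 (0.0527) or hyl1 replicate 2 (0.0586). APS4 and 2PGK were called without Col0 replicate 1 and in no other such fit, with adjusted p of 0.354 and 0.377 without Col0 replicate 2. NF-YA2 was called in none of them, with adjusted p up to 0.105.

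**Figure D2:**
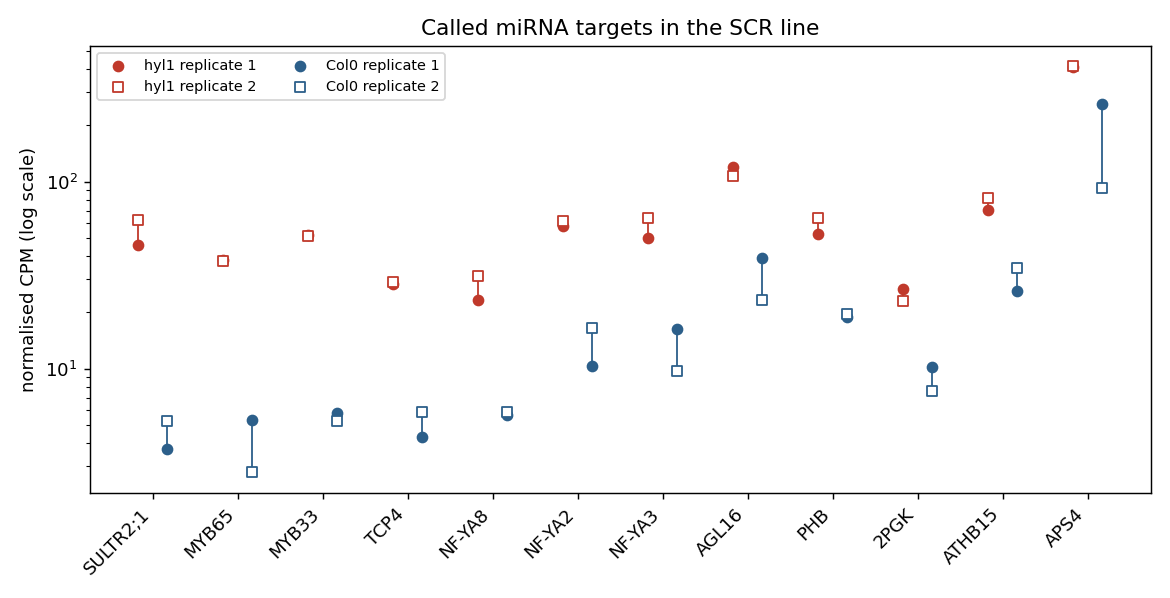
Points give the normalised CPM (log axis) of the 12 called microRNA targets in hyl1 replicates 1 and 2 (left, red) and Col0 replicates 1 and 2 (right, blue) of the SCR line, and lines join the 2 libraries of a genotype. The hyl1 points lie above the Col0 points for each gene, and the widest Col0 spread is that of APS4, at 261 and 93.0 CPM.

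Other families did not pass the test. All 8 tested miR156 targets, SPL genes of phase change, were above 0 with a median of 0.99, and 0 were called. Of the 5 tested miR172 targets 1 was above 0, and the median was −0.23. Of the 3 tested miR472 targets 0 were above 0, with a median of −1.65. Of the 4 tested miR163 targets 1 was above 0, with a median of −1.04. The targets that feed back on the pathway were not called. DCL1 (AT1G01040), the target of miR162, had 30.2 and 33.2 CPM in hyl1 and 23.7 and 37.7 CPM in Col0 (log2 fold change 0.05, SE 0.38). AGO1 (AT1G48410), the target of miR168 and the main effector of microRNAs, had 93.6 and 89.9 CPM in hyl1 and 105 and 185 CPM in Col0 (log2 fold change −0.66, SE 0.39). The groups overlapped for DCL1 and did not overlap for AGO1.

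Of 178 microRNA genes 32 were tested and 1, MIR171c (AT1G62035), was called higher, beside 0.53% of all genes. MIR171c had 8.23 and 15.4 CPM in hyl1 and 0 and 0.155 CPM in Col0. Its Col0 value rests on 1 count in all, so no fold is given. The median of the list was 0.80, or 0.75 with genes at 0 in a group set to their bounds. MIR171c was not called in any fit that left out 1 library (adjusted p up to 0.286). Of the 27 tested genes of the small RNA machinery 0 were higher and 1 was lower, beside 0.53% and 1.37% of all genes.

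That gene was SE (AT2G27100), which encodes SERRATE, a zinc finger protein that works with HYL1 and DCL1 on precursors. SE had 18.0 and 15.3 CPM in hyl1 and 36.4 and 71.2 CPM in Col0. Both hyl1 libraries were below both Col0 libraries, with a log2 fold change of −1.69 (SE 0.40, adjusted p = 0.0316). The effect in the SCR line was below the mean effect of the 5 other lines by 2.1 on the log2 scale (adjusted p = 0.0106). The fold change was −1.12 (adjusted p = 0.596) when Col0 replicate 2 was left out, and the call was also lost without hyl1 replicate 1 (0.23) or hyl1 replicate 2 (0.395). AGO10 (AT5G43810), an Argonaute that sequesters miR165 and miR166, also differed in effect from the other lines, at −2.05 (adjusted p = 0.0021), and was named after its values were seen. AGO10 had 9.45 and 8.08 CPM in hyl1 and 17.6 and 18.1 CPM in Col0 (log2 fold change −1.03, SE 0.32, adjusted p = 0.16). The 6 tested TAS loci, sources of trans-acting siRNAs, gave 0 calls by edgeR or DESeq2 and 0 at an unadjusted p under 0.05.

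The largest rises in hyl1 were genes that were almost silent in Col0. AT1G52820, a 2-oxoglutarate-dependent dioxygenase gene, had 82.0 and 72.2 CPM in hyl1 and 1.92 and 2.17 CPM in Col0. The cytochrome P450 gene CYP712A1 (AT2G42250) had 44.1 and 41.8 CPM in hyl1 and 2.22 and 2.63 CPM in Col0. Both genes were uniformly high in hyl1 and uniformly low in Col0. The log2 fold change was 5.22 for AT1G52820 (SE 0.55, adjusted p = 7.8e-05) and 4.14 for CYP712A1 (SE 0.37, adjusted p = 1.54e-05). AT2G42247, a noncoding RNA gene next to CYP712A1, had 40.9 and 37.1 CPM in hyl1 and 1.48 and 2.63 CPM in Col0. It may share reads with CYP712A1, since the use of strand in counting is not given in the sources used here.

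Weaker transcripts showed the same pattern, and these were named after their values were seen. The dioxygenase gene AT1G15540 had 20.9 and 20.2 CPM in hyl1 and 0.148 and 0.619 CPM in Col0 (adjusted p = 9.86e-05). The P450 gene CYP712A2 (AT5G06905) had 18.4 and 12.4 CPM in hyl1 and 0.148 and 0 CPM in Col0 (adjusted p = 0.00103). HSD4 (AT5G50590), a hydroxysteroid dehydrogenase gene, had 13.0 and 11.4 CPM in hyl1 and 0 and 0.155 CPM in Col0 (adjusted p = 0.000197). HSD4 and its near copy HSD7 had equal counts in 22 of 24 libraries, so their reads cannot be told apart. None of these genes was called as different in effect between the SCR line and the mean of the other lines. With Col0 counts at or near 0 that test can decide little. For CYP712A2 the difference was 1.22 with an SE of 30.8. The log2 fold changes of AT1G52820 in the other lines were 5.88 in 35S, 7.19 in ACR4, 5.26 in SHR, 4.88 in CO2 and 7.42 in WER.

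Genes of aliphatic glucosinolate synthesis, which turns methionine into sulfur-rich defence compounds, rose together. Of 11 listed genes 10 were tested, 8 rose and 0 fell, beside 0.53% of all genes called higher. The median log2 fold change was 1.87, and all 10 were above 0. The summed level was 644 and 751 CPM in hyl1 and 177 and 162 CPM in Col0. Col0 replicate 2 did not stand apart from replicate 1 in this sum. Without it 6 members rose and the median was 1.84.

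The first steps lengthen the side chain of methionine. BCAT4 (AT3G19710), the aminotransferase that begins the cycle, had 125 and 149 CPM in hyl1 and 18.8 and 13.3 CPM in Col0. MAM1 (AT5G23010), a synthase of the cycle, had 40.7 and 47.2 CPM in hyl1 and 7.11 and 5.10 CPM in Col0. Both genes were several times higher in each hyl1 library than in either Col0 library. BCAT4 rose by 3.09 (SE 0.33, adjusted p = 7.8e-05) and MAM1 by 2.84 (SE 0.33, adjusted p = 0.000107). IPMI2 (AT2G43100), a small subunit of the isomerase of the cycle, had 78.2 and 92.6 CPM in hyl1 and 20.0 and 17.9 CPM in Col0, and rose by 2.17 (SE 0.40, adjusted p = 0.00506). That call was lost without Col0 replicate 2 (adjusted p = 0.0967) or hyl1 replicate 2 (0.0616), whereas BCAT4 and MAM1 kept theirs with any 1 library left out.

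The core structure is then built by P450 enzymes and sulfotransferases. CYP83A1 (AT4G13770) had 102 and 110.4 CPM in hyl1 and 30.2 and 27.2 CPM in Col0 (log2 fold change 1.89, SE 0.24). CYP79F2 (AT1G16400) had 47.6 and 62.2 CPM in hyl1 and 15.4 and 15.6 CPM in Col0 (log2 fold change 1.82, SE 0.31). The desulfoglucosinolate sulfotransferase SOT18 (AT1G74090) had 53.0 and 68.7 CPM in hyl1 and 13.8 and 11.4 CPM in Col0 (log2 fold change 2.27, SE 0.35). All 3 were called, with adjusted p of 0.000247 for CYP83A1, 0.00228 for CYP79F2 and 0.00116 for SOT18. MYB28 (AT5G61420), the main transcription factor of the pathway, had 23.6 and 30.2 CPM in hyl1 and 13.0 and 15.8 CPM in Col0. Its groups did not overlap, and its change of 0.90 (SE 0.27) did not pass the test (adjusted p = 0.137).

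**Figure D3:**
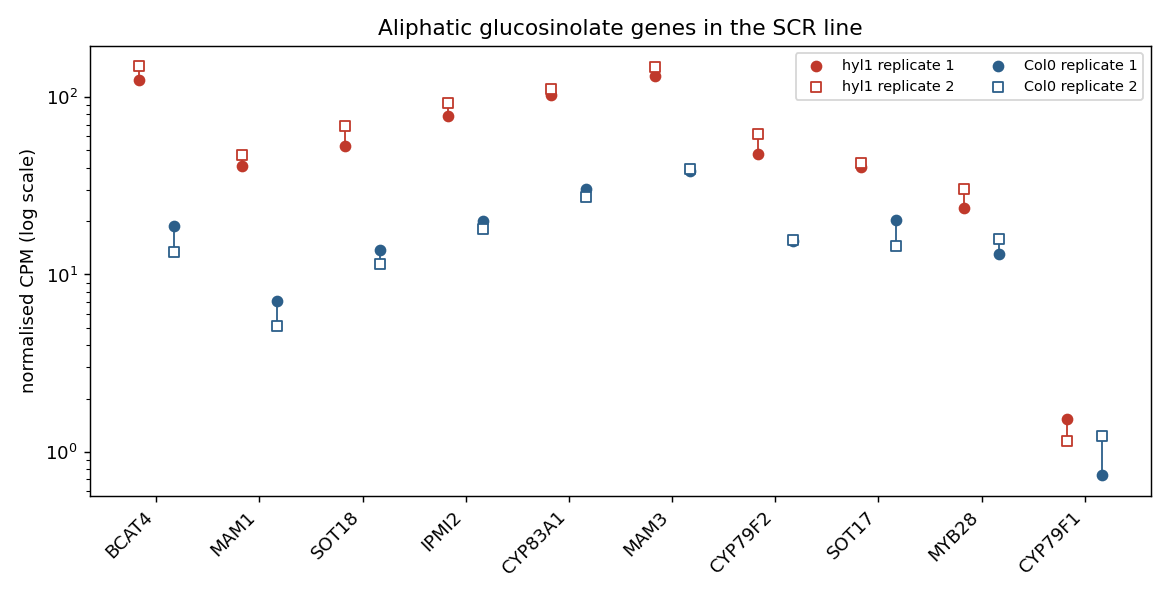
Points give the normalised CPM (log axis) of the 10 tested aliphatic glucosinolate genes in hyl1 replicates 1 and 2 (left, red) and Col0 replicates 1 and 2 (right, blue) of the SCR line. The hyl1 points of 9 genes lie above their Col0 points, as with BCAT4 at 125 and 149 CPM against 18.8 and 13.3 CPM, and those of the weakly counted CYP79F1 overlap.

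Of 17 further genes of this pathway 9 were called higher and 0 lower, beside 0.53% and 1.37% of all genes. They were chosen after the values were seen, so their count does not test the rise. Among the called genes was IMD1 (AT5G14200), the dehydrogenase of the chain elongation cycle. IMD1 had 306 and 316 CPM in hyl1 and 83.6 and 73.0 CPM in Col0, and rose by 1.99 (SE 0.22, adjusted p = 9.75e-05). The isomerase subunits IPMI1 and IIL1 rose by 1.42 and 1.23, the glycosyltransferase gene AT2G31790 by 2.09, and the glutathione S-transferase gene GSTU20 by 2.59. These 5 genes were called with any 1 library left out. The monooxygenase gene FMO GS-OX3, the transporter gene BAT5, the kinase gene AKN2 and the glutathione S-transferase gene GSTF9 rose by 2.44, 1.53, 1.02 and 0.86, but GSTF9 was called in 1 and the others in 0 of the 4 fits with 1 library left out. Another list held 10 genes chosen for the indole branch, which starts from tryptophan, and its members need not act in that branch alone. Of these 10 genes 2 rose and 0 fell, beside 0.53% of all genes called higher, with a median of 0.72. CYP79B2 (AT4G39950), the first enzyme of that branch, had 142 and 126 CPM in hyl1 and 50.2 and 50.7 CPM in Col0, a rise of 1.41 (SE 0.32, adjusted p = 0.0221) that was called in none of the fits with 1 library left out (adjusted p up to 0.19). The other was the glucosyltransferase gene UGT74B1 (AT1G24100), which rose by 1.0 (SE 0.22, adjusted p = 0.0223) and was called only without Col0 replicate 1 among those fits.

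The genes that make the barriers of the endodermis were mostly above 0 with all libraries, but 1 was called by edgeR. Of 17 Casparian strip genes 14 were above 0, 1 rose and 0 fell, beside 0.53% of all genes called higher. Of 23 suberin genes 22 were above 0, and 0 were called by edgeR or DESeq2. An unadjusted p under 0.05 was found for 5 of them, beside 2247 of the 23219 tested genes. The medians of 0.51 and 0.57 became −0.08 and −0.03 without Col0 replicate 2. CASP1 (AT2G36100), a membrane protein of the strip, had 667 and 563 CPM in hyl1 and 651 and 143 CPM in Col0. CYP86A1 (AT5G58860), a hydroxylase of suberin synthesis, had 906 and 778 CPM in hyl1 and 1049.9 and 206 CPM in Col0. In both genes the hyl1 libraries were close to Col0 replicate 1, and only Col0 replicate 2 was low. CYP86A1 was called higher when Col0 replicate 1 was left out, at 2.04 (adjusted p = 0.00165), and stood at −0.31 without Col0 replicate 2. The called gene was CIF2 (AT4G34600), a peptide hormone of strip formation that is known to be made in the stele. CIF2 had 20.7 and 27.3 CPM in hyl1 and 8.14 and 11.9 CPM in Col0 (log2 fold change 1.26, SE 0.31, adjusted p = 0.0417), and it was not called in any fit that left out 1 library (adjusted p up to 0.469). The count of called Casparian strip genes ranged from 0 to 7 over these fits, with 7 without Col0 replicate 1, where 11 suberin genes were also called higher.

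Some phloem genes of the stele list were higher. Of 29 stele genes 3 rose and 0 fell, beside 0.53% of all genes called higher, with a median of 0.56, or 0.68 without Col0 replicate 2. SEOR1 (AT3G01680) and SEOa (AT3G01670) encode the filament proteins of sieve elements. SEOR1 had 31.9 and 33.3 CPM in hyl1 and 3.26 and 4.18 CPM in Col0, and rose by 3.13 (SE 0.48, adjusted p = 0.00103). SEOa had 33.2 and 29.2 CPM in hyl1 and 5.63 and 8.97 CPM in Col0, and rose by 2.09 (SE 0.44, adjusted p = 0.0144). BAM3 (AT4G20270), a receptor kinase of the early phloem, had 70.4 and 72.0 CPM in hyl1 and 21.3 and 34.3 CPM in Col0, and rose by 1.36 (SE 0.29, adjusted p = 0.017). The hyl1 and Col0 libraries did not overlap in any of the 3 genes. SEOR1 kept its call with any 1 library left out, SEOa lost it in each of these fits, and BAM3 in all but the one without Col0 replicate 2. The summed stele markers were 616 and 642 CPM in hyl1 and 406 and 516 CPM in Col0. The stele medians of the other lines were 0.19 in 35S, 1.24 in ACR4, −0.18 in SHR, −0.42 in CO2 and 2.15 in WER. The part of the stele shift in the rises of phloem, HD-ZIP or glucosinolate genes was not tested.

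Root hair genes moved the other way. Of 23 epidermis and root hair genes 0 rose and 4 fell, beside 1.37% of all genes called lower, and the median was −1.30. XTH14 (AT4G25820), a xyloglucan-modifying enzyme of hair walls, had 9.45 and 7.50 CPM in hyl1 and 26.8 and 60.2 CPM in Col0. RHS19 (AT5G67400), a root hair peroxidase, had 9.76 and 11.5 CPM in hyl1 and 25.0 and 54.0 CPM in Col0. Col0 replicate 2 was the highest library for both genes, while both hyl1 libraries lay below Col0 replicate 1. XTH14 fell by 2.36 (SE 0.34, adjusted p = 0.000581) and RHS19 fell by 1.89 (SE 0.35, adjusted p = 0.00478). PRP3 (AT3G62680) and the peroxidase gene AT1G30870 fell by 1.8 and by 1.61. XTH14 was the 1 gene called without Col0 replicate 2, without hyl1 replicate 1 and without hyl1 replicate 2, and 7 genes were called without Col0 replicate 1. The median was −0.79 without Col0 replicate 2. The 14 extensin genes of hair walls had 1 call, EXT12, beside 1.37% of all genes called lower. That call was lost without Col0 replicate 2, hyl1 replicate 1 or hyl1 replicate 2. The extensin median was −1.83, or −1.82 without Col0 replicate 2. The summed epidermis markers were 227.7 and 241 CPM in hyl1 and 361 and 641 CPM in Col0, and the part of cell composition was not tested.

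**Figure D4:**
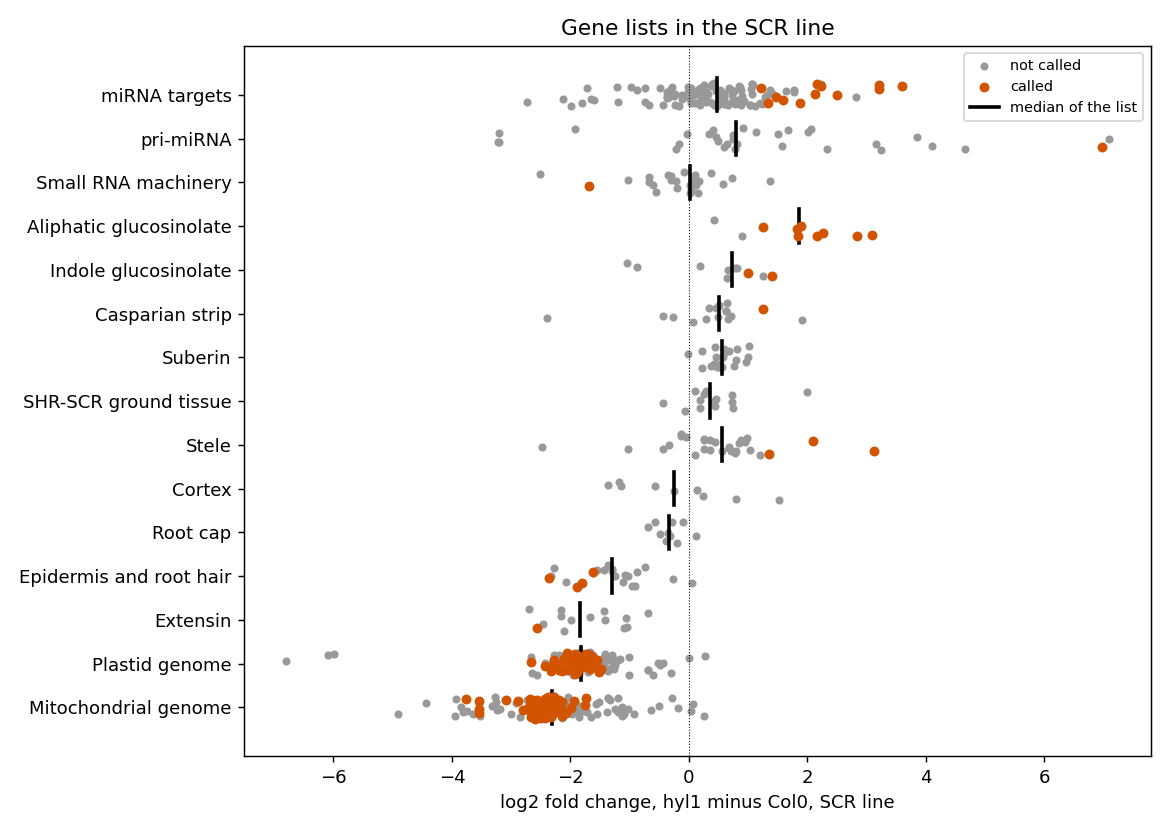
Each point is a tested member of a gene list, placed by its fitted log2 fold change (hyl1 minus Col0, SCR line), and orange marks called genes and black bars list medians. Aliphatic glucosinolate genes centre on 1.87, epidermis and root hair genes on −1.30, plastid genes on −1.82 and mitochondrial genes on −2.31, and the Casparian strip and suberin lists lie between at 0.51 and 0.57.

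Cortex and root cap genes followed 1 library. The thalianol synthase gene THAS1 (AT5G48010) had 123 and 102 CPM in hyl1 and 90.4 and 493 CPM in Col0, so that hyl1 lay between both Col0 libraries. Its log2 fold change was −1.37 (SE 0.48, adjusted p = 0.23) with all libraries and 0.32 without Col0 replicate 2, while without Col0 replicate 1 it was −2.13 (adjusted p = 0.000356). The root cap protease gene MC9 (AT5G04200) had 23.8 and 32.8 CPM in hyl1 and 9.92 and 58.9 CPM in Col0, with values of −0.28 (adjusted p = 0.998) and 1.52 (adjusted p = 0.048) in the same fits. None of the 9 cortex, 10 root cap or 14 SHR-SCR ground tissue genes was called by edgeR with all libraries or by DESeq2. In that order 3, 0 and 0 of them had an unadjusted p under 0.05, beside 2247 of the 23219 tested genes. In the fit without Col0 replicate 1, 3 cortex genes and 1 root cap gene were called lower and 1 ground tissue gene higher.

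The lists of iron uptake, nitrate and ammonium use, cell division, auxin response, abscisic acid and cold, jasmonate and touch, and flavonoids had 0 calls by edgeR. In that order, 17, 14, 15, 19, 13, 16 and 6 members were tested. An unadjusted p under 0.05 was found for 3, 4, 5, 0, 2, 1 and 0 of them, beside 2247 of the 23219 tested genes. DESeq2 called 1 iron and 1 nitrate or ammonium gene and none of the others. Leaving out Col0 replicate 1 gave 1 iron and 3 nitrate or ammonium genes called lower. In the stem cell niche list MYB56 (AT5G17800), a regulator of quiescent centre divisions, had 45.7 and 43.7 CPM in hyl1 and 7.25 and 10.5 CPM in Col0. MYB56 rose by 2.33 (SE 0.32, adjusted p = 0.000386), with clearly separate groups. That was 1 call among 8 tested members, where 0.53% of all genes were called higher. Of 15 photosynthesis genes 1 rose, beside 0.53% of all genes called higher. It was RBCS1A (AT1G67090), a Rubisco small subunit gene with 19.1 and 18.2 CPM in hyl1 and 3.85 and 3.4 CPM in Col0. Its log2 fold change was 2.35 (SE 0.43, adjusted p = 0.00438), and 2.27 without Col0 replicate 2, where the call was lost.

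A group of expansin genes, whose products loosen cell walls, was noticed among the rises after the values were seen. EXPA4 (AT2G39700) had 200.1 and 247 CPM in hyl1 and 39.7 and 38.8 CPM in Col0. EXPA15 (AT2G03090) had 171 and 187 CPM in hyl1 and 26.4 and 40.7 CPM in Col0. EXPB3 (AT4G28250) had 189 and 251 CPM in hyl1 and 46.2 and 45.2 CPM in Col0. All 3 were high in both hyl1 libraries and low in both Col0 libraries, including replicate 2. They rose by 2.51 for EXPA4 (SE 0.28, adjusted p = 9.75e-05), 2.42 for EXPA15 (SE 0.26, adjusted p = 9.75e-05) and 2.27 for EXPB3 (SE 0.26, adjusted p = 9.86e-05). Of the 21 tested expansin genes 3 were called higher and 0 lower, beside 0.53% of all genes called higher, and the median was 0.24.

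Organelle transcripts and their nuclear copies made up a large share of the falls. Of the 317 genes called lower, 52 of 128 tested were plastid genes, 65 of 145 were mitochondrial genes, and 59 of 164 were AT2G07 genes on chromosome 2, where a copy of the mitochondrial genome is inserted. Over all tested genes 1.37% were called lower. The plastid and mitochondrial genes together with these nuclear AT2G07 genes made up 176 of the falls (55.5%). The AT2G07 genes and their mitochondrial counterparts can share reads. All 7 tested U1 and U2 spliceosomal RNA genes, noticed after the values were seen, also fell, which left 134 other nuclear genes.

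ATMG00690 had 27.7 and 40.1 CPM in hyl1 and 158 and 342 CPM in Col0 (log2 fold change −2.88, SE 0.38, adjusted p = 0.000306). AT2G07726 had 12 and 18.5 CPM in hyl1 and 71.9 and 156 CPM in Col0 (log2 fold change −2.90, SE 0.34, adjusted p = 0.00014). Both Col0 libraries were higher than both hyl1 libraries, and Col0 replicate 2 was higher than replicate 1. The same held for the nuclear gene AT5G35200, the most abundant transcript of these libraries. AT5G35200 had 37191 and 34362 CPM in hyl1 and 72591 and 146634 CPM in Col0, a log2 fold change of −1.62 (SE 0.31, adjusted p = 0.00762). That call was not kept in every fit that left out 1 library. AT2G07708, ATMG01220, AT2G07685, AT2G07776, AT2G10600, AT2G07735 and ATMG00490 were also among the 10 largest falls, with log2 fold changes of −2.80 to −3.08. The largest was that of UGT76E2 (AT5G59590), a glycosyltransferase gene, with 0.305 and 1.44 CPM in hyl1 and 36.0 and 6.81 CPM in Col0 (log2 fold change −4.58, SE 1.01, adjusted p = 0.0267), and it was called only without Col0 replicate 2 among the fits with 1 library left out. AT2G07726, AT2G07708 and ATMG00690 kept their calls in all of these fits.

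These shares moved with the library. Mitochondrial genes took 1.29% and 1.60% of counts in hyl1 and 4.28% and 5.90% in Col0, and plastid genes took 0.374% and 0.446% in hyl1 and 0.813% and 1.34% in Col0. Of the 317 genes called lower, 310 (97.8%) were higher in Col0 replicate 2 than in replicate 1, against 48.0% of all tested genes. Of the 123 genes called higher, 70 (56.9%) were. Without Col0 replicate 2 the 91 lower calls held 9 plastid, 30 mitochondrial and 29 AT2G07 genes, 4 spliceosomal RNA genes and 19 other nuclear genes. Plastid, mitochondrial and AT2G07 genes gave 8, 28 and 25 lower calls without hyl1 replicate 1 and 15, 35 and 36 without hyl1 replicate 2. With organelle and AT2G07 genes and the 10 most abundant genes taken out before scaling, 91 genes were higher and 77 lower. Library preparation, RNA purity and genotype cannot be told apart with these libraries as causes of the organelle difference.

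The effect in the SCR line was then set against the mean effect of the 5 other lines, each with its own Col0 libraries. The difference was called for 557 of 23219 genes (2.4%), 59 of them positive (0.254%) and 498 negative (2.14%). With 1 library left out the share was 1.77% without Col0 replicate 2, 3.49% without Col0 replicate 1, 0.944% without hyl1 replicate 1 and 0.945% without hyl1 replicate 2. The number of positive differences was 139, 164, 14 and 6 in these fits, in the same order, and 118 without the WER libraries. Of the negative calls 220 were organelle or AT2G07 genes. Mitochondrial genes had a median log2 fold change of −2.31 in SCR, 0 in 35S, 1.54 in ACR4, −0.19 in SHR, 0.27 in CO2 and 2.77 in WER. The organelle shift thus ran in opposite directions in SCR and in the ACR4 and WER lines.

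None of the 112 tested microRNA targets was called by edgeR as different in effect between the SCR line and the mean of the others. MYB33 had log2 fold changes of 3.22 in SCR, 3.45 in 35S, 3.44 in ACR4, 2.95 in SHR, 1.03 in CO2 and 3.32 in WER. The aliphatic glucosinolate list was uneven across lines, with medians of 1.87 in SCR, 0.42 in 35S, 2.38 in ACR4, 0.24 in SHR, −0.52 in CO2 and 3.78 in WER. BCAT4 was the only member whose difference was called, at 1.61 above the mean of the other lines (SE 0.34, adjusted p = 0.0116). Its log2 fold changes were 3.09 in SCR, 0.80 in 35S, 2.37 in ACR4, 0.23 in SHR, −0.17 in CO2 and 4.16 in WER, so the SCR effect was not the largest.

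**Figure D5:**
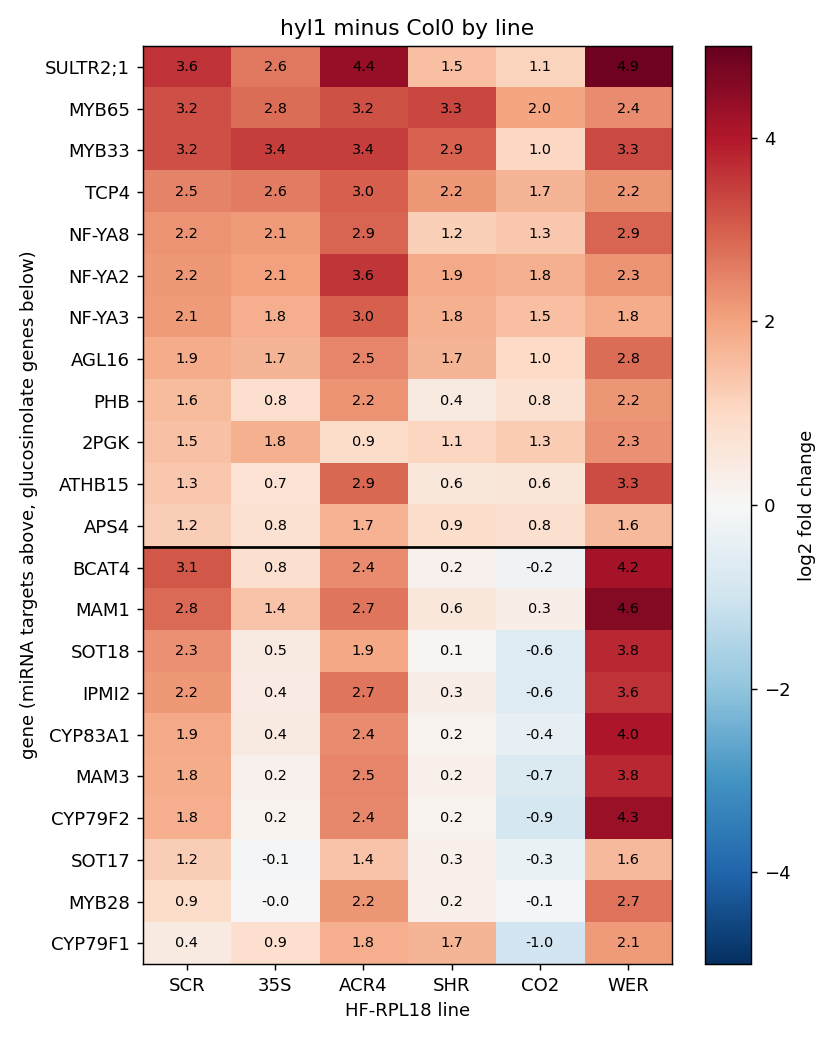
Cells give the log2 fold change (hyl1 minus Col0) of the 12 called microRNA targets and the 10 tested aliphatic glucosinolate genes in the SCR line (first column) and in the 5 other lines, coloured from blue (lower in hyl1) to red (higher in hyl1). The targets are above 0 in all 6 lines, while the glucosinolate genes are high in SCR, ACR4 and WER, with medians of 1.87, 2.38 and 3.78, and below or near 0 in CO2, with a median of −0.52.

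The smallest p-values among positive differences belonged to HHP5, AIR12, EXPB3, RCI2B and AT1G73600. EXPB3 stood 1.62 above the mean of the other lines (SE 0.27, adjusted p = 0.00151), with fold changes of 2.27 in SCR, 0.01 in 35S, 1.83 in ACR4, −0.40 in SHR, −0.61 in CO2 and 2.4 in WER. The methyltransferase gene AT1G73600, with 54.7 and 74.3 CPM in hyl1 and 17.6 and 17.8 CPM in Col0, stood 1.48 above it (SE 0.27, adjusted p = 0.00317). Its fold changes were 1.865 in SCR, −0.19 in 35S, 1.68 in ACR4, −0.52 in SHR, −0.92 in CO2 and 1.86 in WER. The rise was thus not particular to the SCR line. HHP5 itself was not called in the SCR line, at 0.24, and its difference of 2.18 became 0.09 when the WER libraries were left out (adjusted p = 0.906). AIR12 and RCI2B were also not called in SCR, at 0.52 and 0.58, and had their lowest values, −2.32 and −2.37, in the WER line. The smallest p-values among negative differences belonged to ATMG01190, AT2G07698, ATMG00670 and ATMG01280, organelle or organelle-like genes, and to the lectin gene AT1G60095, with differences of −2.43 to −3.59.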

How the data were processed

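The deposited values were raw counts per gene, in 1 table of 33602 genes and 24 libraries, and the authors made them with featureCounts (Subread), according to the submitters' processing notes. The notes also list CASAVA 1.8.2, the aligners TopHat2 2.0.11 and Bowtie2 2.2.1.0, and TAIR10. Neither strand use nor the handling of multiply matching reads is given in the sources used here, and reads of near copies or overlapping genes may therefore be shared. Symbols came from a TAIR10.1 annotation that held 32835 of the identifiers (97.7%), and no coordinates are given because the builds differ. Mature microRNAs and transcript windows were read from the TAIR10.1 genome and annotation.

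The test was edgeR's quasi-likelihood F test (edgeR 4.0.16, R 4.3.3) on 12 group means, with TMM scaling and with filterByExpr removing weakly counted genes (minimum count 10, minimum total 15). All 24 libraries entered, giving a common dispersion of 0.126. The contrasts were hyl1 minus Col0 in the SCR line, and that effect minus the mean effect of the 5 other lines. Adjusted p stands for Benjamini-Hochberg adjustment over every tested gene, called at 0.05. DESeq2 1.42.0 and the settings of the closing section were alternatives, and the fits were checked on simulated counts. Those counts gave all libraries the same mean profile, apart from changes set in the hyl1 SCR libraries. That check therefore did not cover a library that stood apart, as Col0 replicate 2 did.

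Genes named by rule were HYL1, RPL18 and SCR, the 10 largest rises and falls among called genes with a mean log2 CPM of at least 2, and up to 4 called members of each list (12 for microRNA targets), or the 2 most counted where none was called. From the difference between lines the 5 smallest p in each direction were named. Members chosen by this rule from lists without a call are not all described above. The members and the lists were chosen with earlier results of these data known. Groups and replicate numbers were read from the titles. The labels do not say that replicates were separate cultures, so each p-value reflects the variation among these samples alone, which could be technical.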

Additional observations from a re-analysis of the deposited data

Results flagged for a closer look

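The hyl1 effect in the SCR line differed from the mean effect of the 5 other lines for 557 genes. Among the genes named above, positive differences on the log2 scale (edgeR) were 1.61 for BCAT4, 1.44 for CYP79B2, 2.18 for HHP5, 1.35 for AIR12, 1.62 for EXPB3, 1.39 for RCI2B and 1.48 for AT1G73600. Negative differences were −1.71 for XTH14 and −2.10 for SE. The lectin gene AT1G60095 and AT2G10600 differed by −2.43 and −3.93. Among mitochondrial genes the differences were −3.48 for ATMG01220, −3.02 for ATMG00690, −3.69 for ATMG00490, −3.37 for ATMG01190, −3.59 for ATMG00670 and −3.26 for ATMG01280. In the AT2G07 block they were −4.11 for AT2G07685, −4.33 for AT2G07776, −3.52 for AT2G07726, −3.55 for AT2G07735, −3.85 for AT2G07708 and −3.37 for AT2G07698. Each was tested as a difference of effects, with adjusted p between 2.29e-05 and 0.0304. No group held 4 or more libraries, so no library could be tested as an outlier by its distance to the others.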

How the results depend on the processing

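Counts of calls depended on the source of the spread. Log2 CPM of the 2 hyl1 WER libraries correlated at 0.752 across genes, against 0.926 to 0.975 for the 2 libraries of each other group. Without the WER libraries (added after seeing the data) 381 genes were called higher and 736 lower in the SCR line. The part of the WER libraries in the other counts was not tested. DESeq2 called 780 genes (545 lower), and 16 libraries without the SHR and WER lines called 1172 (401 higher, 771 lower). A fit of the 4 SCR libraries alone called 1, AT1G52820 (0 lower), of 19622 tested, with 2419 at an unadjusted p under 0.05, and in it 0 miRNA targets, 0 aliphatic glucosinolate, 0 Casparian strip and 0 epidermis genes were called. Leaving out 1 SCR library, so that the lone library is assumed to vary like the other groups, gave 135 to 983 calls, 70 to 695 of them lower, with 7 to 15 targets, 0 to 7 Casparian strip genes, 1 to 7 epidermis genes and a difference from the other lines for 0.944% to 3.49% of genes. The highest counts came without Col0 replicate 1. Without organelle, AT2G07 and the 10 most abundant genes (added after seeing the data) there were 168 calls, 77 lower, differences for 0.867% of genes, 0 Casparian strip and 2 epidermis genes. Differences were called for 4.64% of genes by DESeq2 and for 4.11% with a stricter filter. The Casparian count was 0 without a filter, 2 with DESeq2 and 2 with 16 libraries, where 10 epidermis genes and 24 targets were called.

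Replicate numbers were not treated as pairs in the main fit. Deviations of same-numbered SCR libraries correlated at 0.07 across genes, which with 2 libraries a group cannot decide whether they were paired. A replicate block gave 267 calls (74 higher, 193 lower), differences for 1.44% of genes, 0 Casparian strip and 2 epidermis genes. Signs turned for 9 named genes, none called with all libraries. With 1 library left out they ranged from −0.31 to 2.04 for CYP86A1, −2.13 to 0.32 for THAS1, −1.98 to 0.81 for CYP705A5, −1.06 to 0.96 for CEL5, −1.06 to 1.52 for MC9 (0.15 in the block), −0.24 to 0.22 for IAA2, −0.016 to 0.13 for TT4, −0.93 to 0.33 for MYC2 and −0.044 to 0.67 for TAS1C. The turn came without Col0 replicate 1 for MYC2 and TAS1C and without Col0 replicate 2 for the other 7, and IAA2 also turned without hyl1 replicate 1 and TT4 without hyl1 replicate 2. The cause of these shifts was not tested. With 2 libraries a group, smaller changes may go uncalled, and transcripts at 1 to 3 counts carry no fold.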
